A study of Petunia x hybrida with 6 samples.

Results

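In the petunia corolla, 132 genes had nearly equal transcript levels in 3 morning libraries but differed by 2-fold or more among 3 evening libraries. The members were chosen on these values by a fixed rule. A gene needed 60 or more counts summed over the 6 libraries (17515 of 35812 gene IDs) and a mean of at least 10 CPM (10905 IDs). CPM is the count per 1000000 of the library size after TMM scaling, edgeR's correction for a few genes taking a large share of a library. The mean CPM at 7PM also had to lie between 0.5 and 2 times that at 7AM, which left 8056 genes, called eligible here. Among these, the members had a largest CPM at most 25% above the smallest at 7AM (called even) and at least 2 times the smallest at 7PM (called uneven). The largest over the smallest CPM is called the morning ratio and the evening ratio. The members made up 1.64% of the eligible genes. Because the rule used the spread at both times and the ratio of the means, these quantities are described here and not tested.

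Polyadenylated RNA was sequenced from corollas (whole petals) of the cultivar Mitchell of Petunia x hybrida. Plants of both groups shared a greenhouse regime of 14 h light, from 6AM to 8PM, and 10 h dark. The groups differ only in the labelled time, 7AM (1 h into the light) or 7PM (1 h before its end), with 3 libraries each. The labels do not say whether replicates came from separate plants or pools, nor on which days they were taken, so the spread described here may be biological or technical. Total counts ran from 16497054 to 18040038, and the largest total was that of 7PM replicate 1. TMM factors were 1.13 to 1.16 at 7AM and 0.854 to 0.892 at 7PM, with the highest evening factor in replicate 1.

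Petunia petals are a source of floral scent. In the white-flowered Mitchell, benzenoid and phenylpropanoid volatiles are released mainly at night, and many of the genes behind them follow the time of day through the circadian clock and the light regime. The deposited table gives IDs on scaffolds of a Petunia axillaris reference and does not pair them with gene names or functions. Roles of the members are therefore not stated, and neither the tissue nor any other cell type could be checked against marker genes. In whole corollas, fewer cells of a type and less RNA per cell cannot be told apart.

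Uneven evening replicates with even morning replicates were counted in 132 genes, and the opposite in 2. With the times exchanged, 2 of the 8056 eligible genes met the rule (0.0248%). These 2 genes had morning ratios of 2.42 and 2.92 and evening ratios of 1.23 and 1.17. The evening libraries were also less alike over all eligible genes. By the 25% limit, 7231 eligible genes were even at 7AM (89.8%) and 5614 at 7PM (69.7%). A ratio of 2 or more was met by 275 eligible genes at 7PM (3.41%) and by 27 at 7AM (0.335%). Of the 275 genes uneven at 7PM, 132 (48%) were even at 7AM and are the members. Another 143 were not even at 7AM, and 18 of these reached 2 at both times. The share even in the morning was thus 48% among genes uneven in the evening and 89.8% among all eligible genes, a difference that was not tested.

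**Figure D1:**
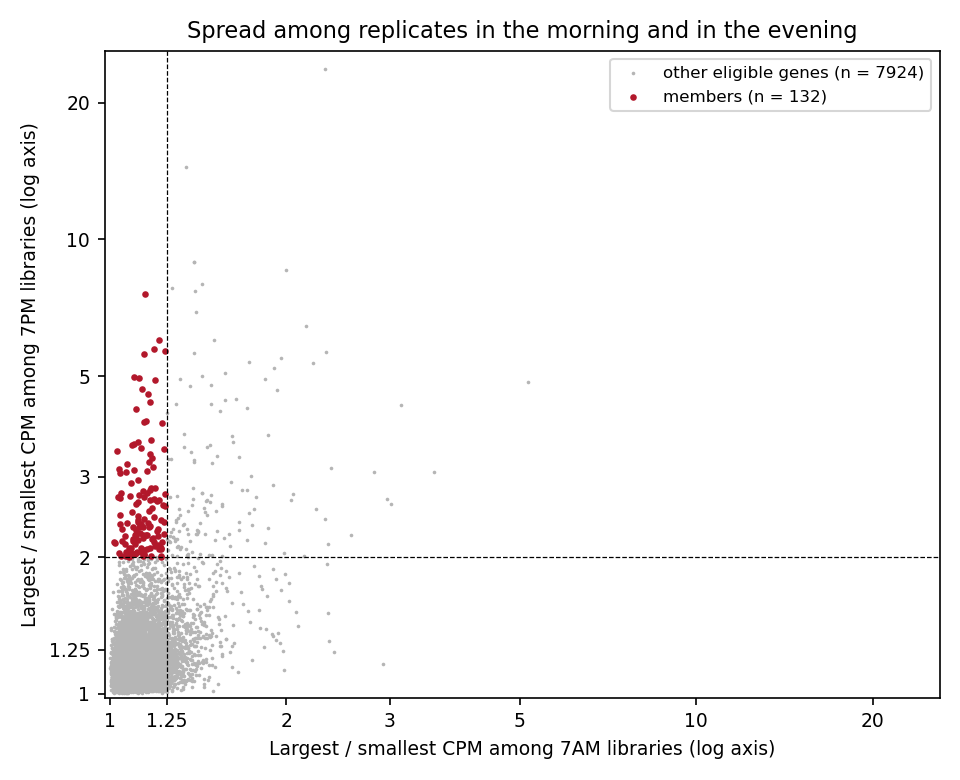
Largest over smallest CPM among the 3 evening libraries (y axis) against that among the 3 morning libraries (x axis) for 8056 eligible genes, both on log axes, with the limits of the rule as dashed lines. The 132 members (red) fill the upper left field, and only 2 genes lie in the opposite field with a morning ratio of 2 or more and evening libraries within 25%.

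The members were ordinary in abundance. Their mean CPM ran from 10.2 to 757.9 with a median of 33.5, and the median over eligible genes was 34.9. They made up 1.79% of the eligible genes of 10 to 30 CPM (63 members), 1.27% of those of 30 to 100 CPM (42 members) and 2.24% of those of 100 to 1000 CPM (27 members). None of the 25 eligible genes of 1000 CPM or more was a member, although 2 of these were uneven at 7PM. The most abundant member, Peaxi162Scf00089g01334, named here after its values were seen, had 898.5, 845.6 and 917.1 CPM in 7AM replicates 1 to 3 and 921.8, 440.3 and 524.3 CPM in 7PM replicates 1 to 3. Its evening replicate 1 thus lay just above the morning level, and replicates 2 and 3 well below it.

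The smallest count of any member in any library was 85. The evening ratio, which chose the members, had a median of 2.38 and a maximum of 7.60, against a median of 1.17 over eligible genes. It was under 2.5 in 74 members, 3 or more in 32, 4 or more in 12 and 5 or more in 5. The limit of 2 falls in a continuous distribution, since 42 members had ratios from 2 to 2.2 and another 76 morning-even genes had ratios from 1.8 to 2. The values nearest to the limit were 2.001 inside and 1.9996 outside. For the morning limit they were 1.244 and 1.252, for the mean of 10 CPM 10.2 and 9.52, and for the ratio of the means 0.502 and 0.498 at its lower and 1.997 and 2.033 at its upper limit.

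The evening values were sorted on the log2 scale, and the library farther from the middle one was taken as standing apart, either high or low. This always assigns 1 library, and only in 65 of 132 members were the other evening libraries within 25% of each other. The library apart was high in 100 of 132 members (75.8%) and low in the others. The most frequent pattern was 7PM replicate 1 high, in 66 members (50%). Replicate 2 stood apart as high in 21 members (15.9%) and as low in 16 (12.1%). Replicate 3 was high in 13 (9.85%) and low in 6 (4.55%), and replicate 1 was low in 10 (7.58%). Replicate 1 was the highest evening library in 75 members (56.8%), and in 47.7% to 66.1% of the sets found with other scalings of the libraries. Over all eligible genes replicate 1 was the highest in 38.2%. Its larger total count is given above, and the part of depth in the pattern was not tested. Over all eligible genes, most of which vary little, the 6 patterns were closer to even, from 14.0% for replicate 3 high to 20.7% for replicate 1 high, with 51.7% high in all.

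The genes most like the members are the 143 that were uneven at 7PM but not even at 7AM. Among these, the library apart was high in 84 (58.7%). Replicate 1 stood apart as high in 26.6%, and replicate 2 as low in 30.1%. Their pattern thus leaned to a low replicate 2 as much as to a high replicate 1. Replicate 1 was the highest evening library in 48.3% of them and in 56.8% of the members (38.2% of eligible genes). Replicate 2 was the lowest in 57.3% of them and in 43.2% of the members (30.1% of eligible genes). The difference between these sets was not tested, because genes of the same libraries are not independent replicates.

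**Figure D2:**
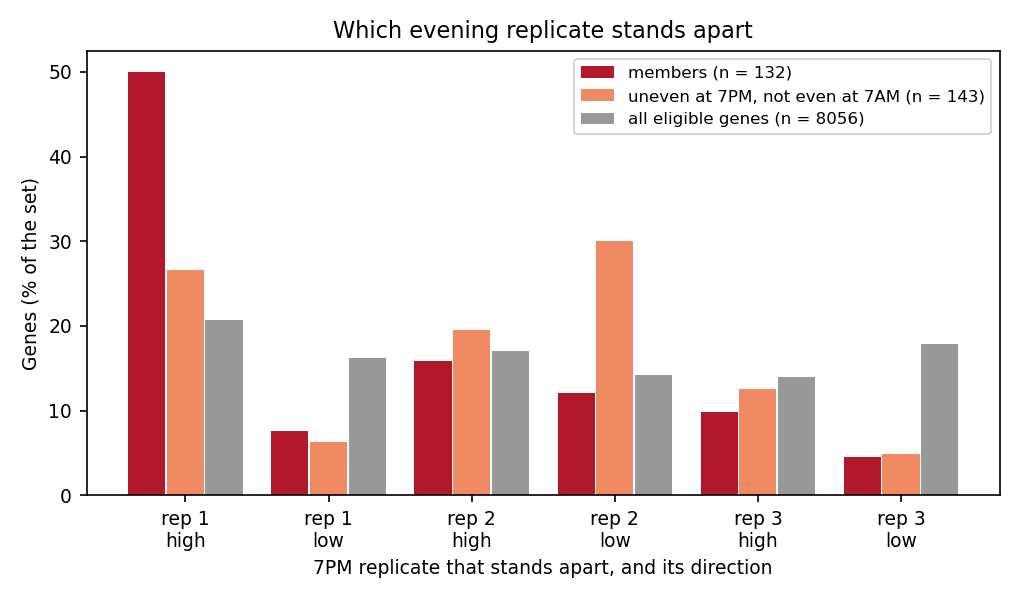
Percentage of genes (y axis) by the 7PM replicate that stands apart and its direction (x axis) in the 132 members, in the 143 genes uneven at 7PM but not even at 7AM, and in all 8056 eligible genes. Replicate 1 high holds 50% of the members, against 26.6% and 20.7% of the other sets.

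The members varied together to a limited degree. Over the 3 evening libraries, centred log2 CPM has 2 axes, so the first holds at least 50% of the variation of any gene set. It held 73.4% in the members, 65.0% in the 143 genes uneven at 7PM but not even at 7AM, and 58.1% in the 7924 eligible genes that are not members. In the members this axis set replicate 1 (loading 0.80) against replicate 2 (-0.52) and replicate 3 (-0.28). On the side with replicate 1 higher lay 88 members, and 44 on the other. The loadings were similar in the 7924 other eligible genes (0.78, -0.60 and -0.18), with 4168 and 3756 genes on those sides. In the 143 genes they were 0.69, -0.73 and 0.04, with 97 and 46 genes. A contrast of replicate 1 with replicate 2 is thus not particular to the members. The remaining 26.6% of the variation ran across this axis. All 6 orders of the 3 libraries occurred. The most frequent order was replicate 1 over 2 over 3, in 39 members (29.5%, against 22.1% of eligible genes). Next was 1 over 3 over 2 in 36 (27.3% against 16.1%). Then came 2 over 3 over 1 in 26 (19.7% against 17.8%) and 3 over 1 over 2 in 21 (15.9% against 14.0%). The rarest were 2 over 1 over 3 in 7 members (5.30% against 15.4%) and 3 over 2 over 1 in 3 (2.27% against 14.7%). A single high or low library therefore does not describe all members.

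How much rests on each evening library is shown by leaving it out. Without 7PM replicate 1, 37 of the 132 members still had an evening ratio of 2 or more between replicates 2 and 3, and their median ratio was 1.45. Without replicate 2 the number was 77 with a median of 2.05, and without replicate 3 it was 84 with a median of 2.15. Applied anew to the remaining libraries, the rule found 35 genes without 7PM replicate 1, 70 without replicate 2 and 77 without replicate 3, of which 31, 64 and 65 were among the 132. Fewer evening values make the 2-fold limit harder to meet, so the number tends to fall whichever evening library is left out. The fall was largest without replicate 1, which thus carried more of the set than the other evening libraries. Without a 7AM library the rule found 172 to 203 genes, since fewer values make the 25% limit easier to meet.

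Evening values usually lay on both sides of the morning ones. In 91 members at least 1 evening library lay above the range of the 3 morning libraries and at least 1 below it. The number depends on how the times are scaled to each other, and was 76 with library totals and 88 to 94 with the other scalings tried. The rule favours this form, since it asked for a narrow morning range, a wide evening range and a limited ratio of the means. The form was not counted in other genes, so it is not given as a trait of the members. All 3 evening libraries lay above the morning range in 5 members and below it in 15, so that the times did not overlap in these, where the values of the times do not overlap in 65.2% of eligible genes. The rule used the contrast, so nothing is read from that difference. Replicate 1 lay above the morning range in 75 members and below it in 46. Replicate 2 was above in 36 and below in 81, and replicate 3 above in 27 and below in 91. The median log2 level relative to the morning mean was 0.21 in replicate 1, -0.32 in replicate 2 and -0.34 in replicate 3, and over eligible genes it was 0.02, -0.03 and -0.04.

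**Figure D3:**
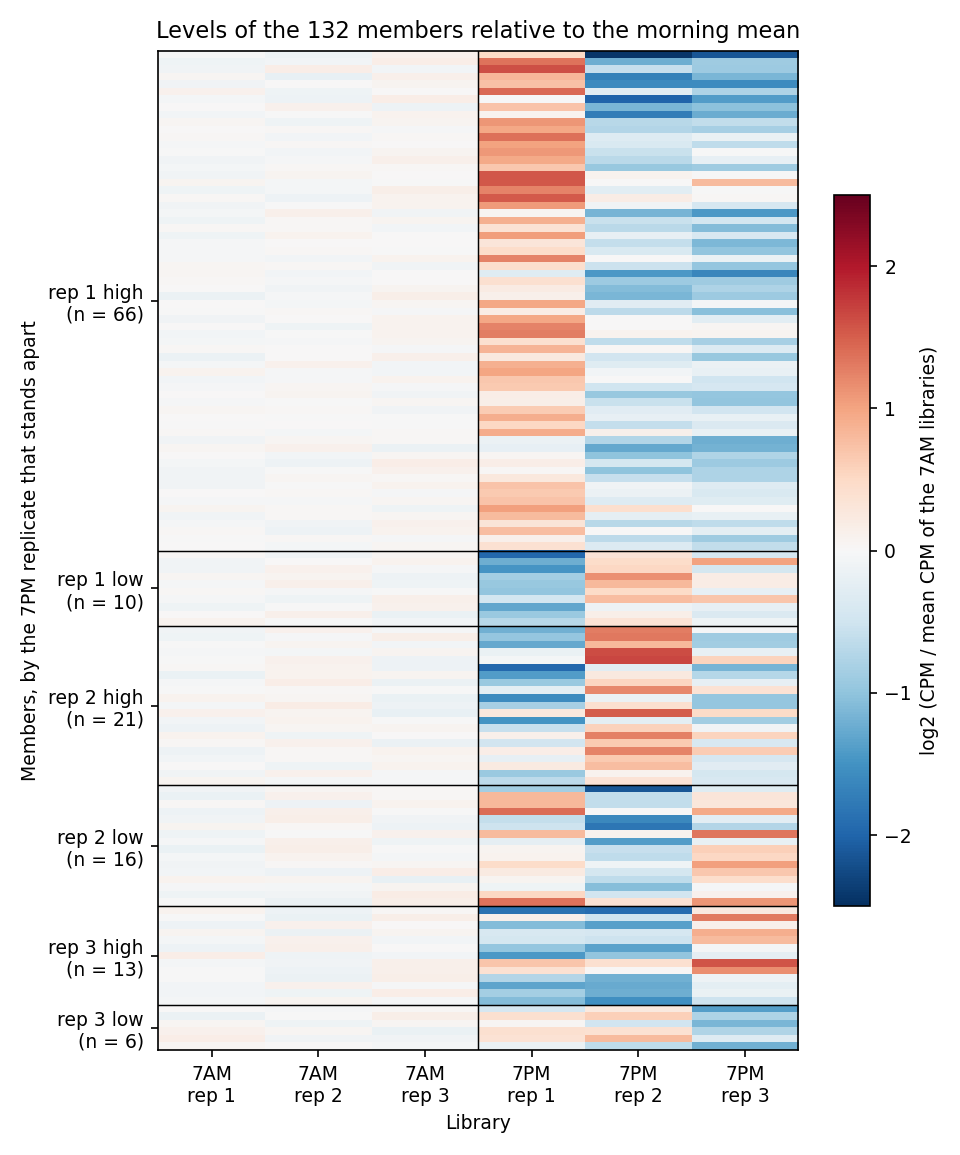
Log2 of CPM over the mean CPM of the 7AM libraries (colour, red higher and blue lower) for the 132 members (rows, grouped by the 7PM replicate that stands apart) in the 6 libraries (columns). The morning columns are nearly white by the rule, and the evening columns hold red and blue in the same row in 91 members that lie on both sides of the morning range.

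The two-sided form was met in 51 of the 66 members with evening replicate 1 high, in 9 of the 10 with replicate 1 low and in 5 of the 6 with replicate 3 low. It was met in 13 of 21 members with replicate 2 high, 8 of 16 with replicate 2 low and 5 of 13 with replicate 3 high. In the members with replicate 1 high, that library lay above the morning range in 57 of them, and replicates 2 and 3 both lay below it in 49. In 40 members both held. The median log2 level relative to the morning mean was 0.71 in replicate 1 (quartiles 0.27 and 1.00), -0.55 in replicate 2 and -0.64 in replicate 3. Their CPM summed to 5888, 5980 and 6125 in 7AM replicates 1 to 3 and to 9762, 4131 and 4029 in 7PM replicates 1 to 3. The evening mean of 5974 ± 3281 CPM (SD, n = 3) was close to the morning mean of 5998 ± 119 CPM (SD, n = 3). No single evening library was near it. The rule and the grouping by a high replicate 1 favour sums of this form, so they are a description only. With library totals the evening mean of these sums was 0.765 times the morning mean. Replicate 1 was 1.76- to 6.85-fold above the geometric mean of the other evening libraries, with a median of 2.205. Their median abundance was 45.2 CPM, against 20.2 to 36.4 CPM in the other 5 patterns.

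In 6 of the 66, replicate 1 lay within the morning range and replicates 2 and 3 below it. These genes were at the morning level in 1 evening library and lower in the others. In 2 members the reverse held, with replicates 2 and 3 within the morning range and replicate 1 above it. In 3 members all evening libraries lay below the morning range, replicate 1 the least.

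**Figure D4:**
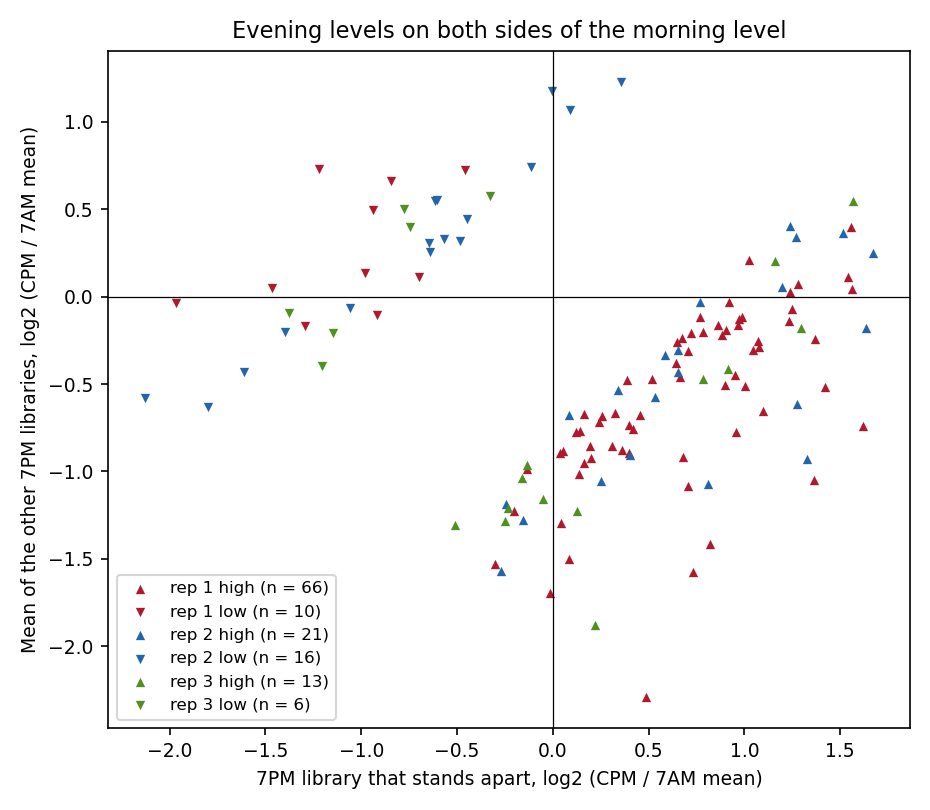
Log2 level of the 7PM library that stands apart (x axis) against the mean log2 level of the other 7PM libraries (y axis), each relative to the mean of the 7AM libraries, for the 132 members, coloured by replicate and marked upward for high and downward for low. Most members with replicate 1 high (66 upward red points) lie right of and below 0, with the library apart above the morning level and the others below it.

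Individual members were named by a rule applied to each evening replicate. Among members whose other evening libraries were within 25% of each other (65 of 132), the 2 with the largest distance above and the 2 with the largest distance below were taken. For replicate 1 high these were Peaxi162Scf00109g00024 and Peaxi162Scf00643g00063. Peaxi162Scf00109g00024 had 85.0, 79.9 and 91.7 CPM in 7AM replicates 1 to 3 and 119.7, 15.7 and 19.4 CPM in 7PM replicates 1 to 3. Evening replicate 1 exceeded every morning library, while replicates 2 and 3 were far below all of them. The evening ratio of 7.60 was the largest of all members. Its morning mean of 85.5 ± 5.92 CPM and evening mean of 51.6 ± 59.0 CPM (SD, n = 3) show that an evening mean describes none of the evening libraries here. Peaxi162Scf00643g00063 had 20.7, 22.2 and 23.2 CPM in the morning and 36.6, 7.40 and 7.41 CPM in the evening, in the same order. Replicates 2 and 3 were almost equal, and replicate 1 was 4.95-fold above them.

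Only 2 of the 10 members with replicate 1 low had close values in the other evening libraries. Peaxi162Scf00624g00921 had 19.2, 18.3 and 21.4 CPM in 7AM replicates 1 to 3 and 14.2, 33.3 and 31.5 CPM in 7PM replicates 1 to 3. Here replicate 1 lay below the morning range and replicates 2 and 3 above it, the mirror image of the frequent form. Peaxi162Scf00817g00217 had 80.7, 85.4 and 93.3 CPM in the morning and 35.3, 78.9 and 74.8 CPM in the evening. All its evening values were below the morning range, replicates 2 and 3 by little and replicate 1 by more than 2-fold relative to them (2.17-fold). Among all 10 members of this kind, the median log2 level relative to the morning was -0.96 in replicate 1, 0.47 in replicate 2 and -0.16 in replicate 3.

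A high replicate 2 was seen in Peaxi162Scf00002g05210 and Peaxi162Scf00004g03812. The first had 39.7, 42.0 and 47.3 CPM in 7AM replicates 1 to 3 and 22.0, 107.9 and 23.1 CPM in 7PM replicates 1 to 3, with replicate 2 4.78-fold above the others. The second had 13.2, 13.0 and 14.2 CPM in the morning and 11.9, 41.9 and 11.9 CPM in the evening, with replicate 2 3.52-fold above the others. Replicates 1 and 3 were nearly equal in each gene and below the morning range. Over the 21 members of this kind the median log2 level relative to the morning mean was -0.66 in replicate 1, 0.65 in replicate 2 and -0.39 in replicate 3. Their summed CPM was 606.9, 1546 and 824.9 in 7PM replicates 1 to 3, against a morning mean of 1052 ± 41.0 CPM (SD, n = 3).

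A low replicate 2 was represented by Peaxi162Scf00174g01113 and Peaxi162Scf00116g00117. Peaxi162Scf00174g01113 had 23.1, 25.7 and 22.0 CPM in 7AM replicates 1 to 3 and 20.3, 8.95 and 20.8 CPM in 7PM replicates 1 to 3. Peaxi162Scf00116g00117 had 58.2, 56.4 and 50.8 CPM in the morning and 38.4, 15.8 and 33.1 CPM in the evening. In these genes every evening library was below the morning range and replicate 2 the lowest. That was not the rule for this kind. In 7 of its 16 members replicates 1 and 3 both lay above the morning range, and in 4 both lay below it. The median log2 level relative to the morning mean was 0.15 in replicate 1, -0.61 in replicate 2 and 0.37 in replicate 3.

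Replicate 3 stood apart least often. Peaxi162Scf00789g00411 had 23.0, 19.6 and 21.8 CPM in 7AM replicates 1 to 3 and 5.97, 5.72 and 25.1 CPM in 7PM replicates 1 to 3. Peaxi162Scf00030g00252 had 23.4, 27.4 and 25.6 CPM in the morning and 11.9, 9.89 and 27.8 CPM in the evening. In both genes replicate 3 stayed just above the morning range while replicates 1 and 2 were well below it. Over the 13 members with replicate 3 high, the median log2 level relative to the morning mean was -0.86, -1.21 and 0.13 in 7PM replicates 1 to 3. Replicates 1 and 2 lay below the morning range together in 10 of them, and the median ratio of the 7PM mean to the 7AM mean was 0.650, against 1.04 in the members with replicate 1 high.

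The 2 named members with replicate 3 low had evening values on both sides of the morning range. Peaxi162Scf00222g00058 had 16.3, 18.1 and 20.1 CPM in 7AM replicates 1 to 3 and 24.0, 27.6 and 10.6 CPM in 7PM replicates 1 to 3. Peaxi162Scf00268g00046 had 19.9, 19.0 and 16.5 CPM in the morning and 24.5, 24.2 and 11.0 CPM in the evening. In both, replicates 1 and 2 were above every morning library and replicate 3 below them all. Over the 6 members of this kind, the median log2 level relative to the morning mean was 0.21, 0.31 and -0.96 in 7PM replicates 1 to 3.

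**Figure D5:**
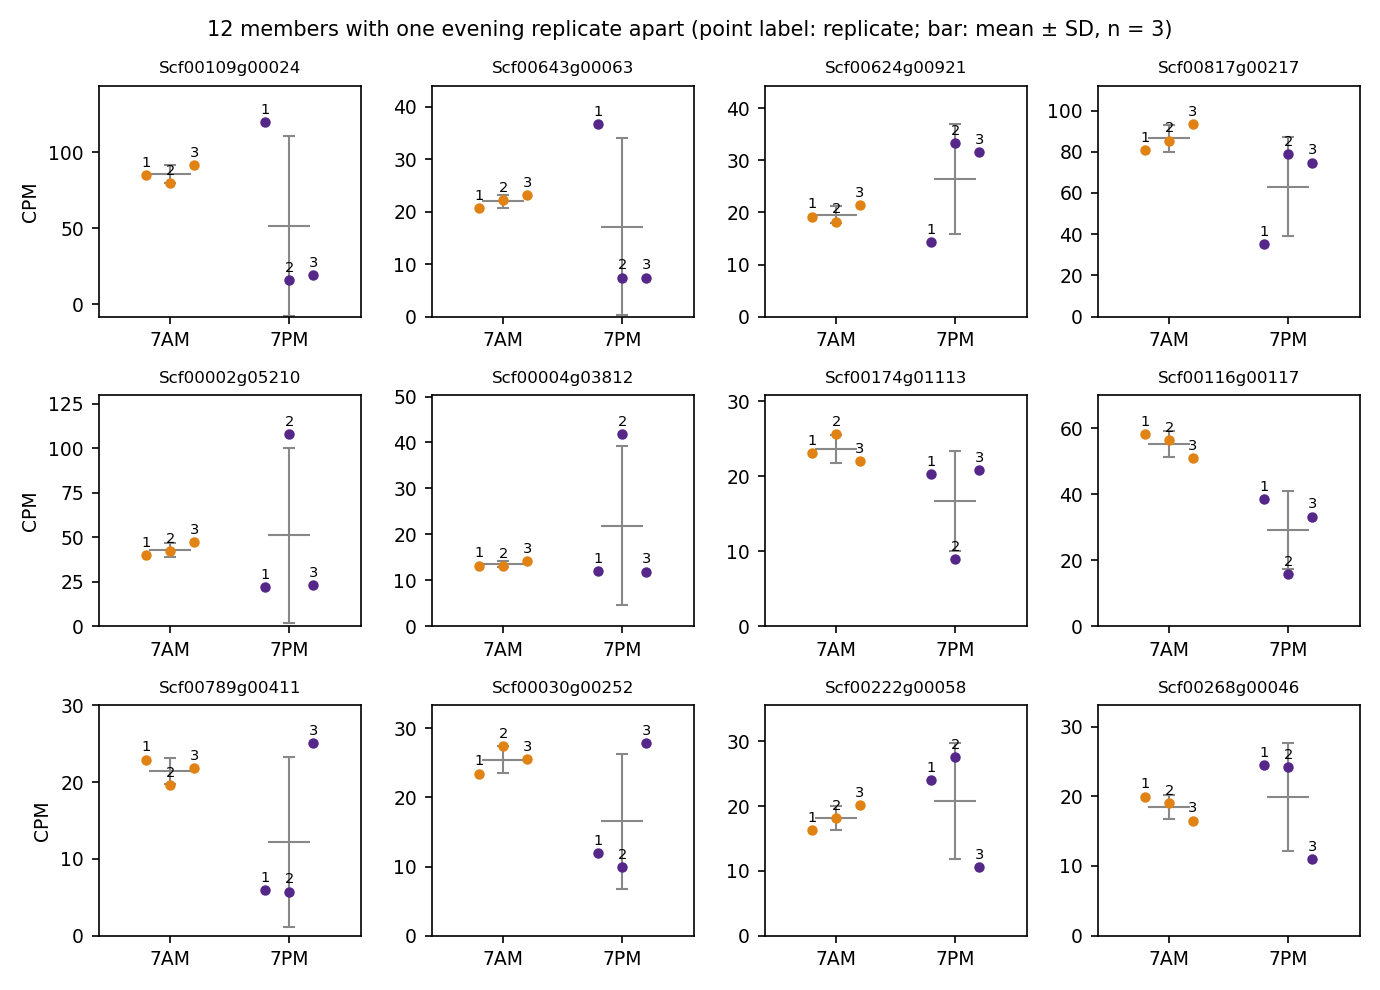
CPM (y axis, linear, a separate scale in each panel) of the 12 named members in the 7AM and 7PM libraries (x axis), with each point labelled by its replicate and the mean ± SD (n = 3) as grey bars. In each panel the morning points lie close together and 1 evening replicate lies away from the other evening replicates, as in Peaxi162Scf00109g00024 with 119.7 CPM in replicate 1 against 15.7 and 19.4 CPM.

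The share with replicate 1 high was the same among members with evening ratios of 3 or 4 and more. It was 66 of 132 members, 16 of the 32 with a ratio of 3 or more and 6 of the 12 with a ratio of 4 or more (50% each). These sets are nested, and each counts the same 3 adjacent IDs on scaffold 109 with replicate 1 high. Of the 32, another 7 had replicate 2 high and 5 had replicate 1 low. Of the 5 with a ratio of 5 or more, 4 had replicate 1 high, but 3 of these are adjacent IDs on scaffold 109 that may not be independent. Besides Peaxi162Scf00109g00024 these 4 were Peaxi162Scf00109g00031, Peaxi162Scf00109g00029 and Peaxi162Scf00720g00045, and the fifth was Peaxi162Scf00981g00317. The last 4 are named after their values were seen. Peaxi162Scf00720g00045 had 21.2, 25.2 and 21.4 CPM in 7AM replicates 1 to 3 and 69.3, 15.2 and 12.1 CPM in 7PM replicates 1 to 3. Peaxi162Scf00981g00317 had 17.3, 19.8 and 18.0 CPM in the morning and 7.96, 44.5 and 18.1 CPM in the evening. Its replicate 3 lay in the morning range, with replicate 1 below and replicate 2 above.

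Position was not part of the rule. IDs carry a scaffold and a number, which is assumed here to follow the order along the scaffold. The 132 members lay on 113 scaffolds, and 15 scaffolds held more than 1 member (34 members in all, at most 4 on a scaffold). In 5 of these 15 scaffolds all members had the same library apart in the same direction. Among eligible genes ordered by ID, 10 members had a member as the next or previous ID. These formed 6 adjacent pairs. Of the 227 places next to a member on its scaffold, counted from each member, 12 (5.29%) held a member, and members are 1.64% of the eligible genes. Of the 12 places, 4 are on scaffold 109 and another 4 on scaffold 69, and the difference between the shares was not tested. In 4 of the 6 pairs both members had the same pattern.

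There were 2 runs of 3 members adjacent among eligible genes, on scaffolds 109 and 69. On scaffold 109, Peaxi162Scf00109g00024, Peaxi162Scf00109g00029 and Peaxi162Scf00109g00031 were 3 of the 4 members with the largest evening ratios. Peaxi162Scf00109g00029 had 31.7, 26.6 and 33.1 CPM in 7AM replicates 1 to 3 and 53.9, 9.49 and 13.8 CPM in 7PM replicates 1 to 3. Peaxi162Scf00109g00031 had 59.97, 61.3 and 72.6 CPM in the morning and 166.1, 27.7 and 35.1 CPM in the evening. All 3 genes had replicate 1 above the morning range and replicates 2 and 3 below that range. Replicate 2 was the lowest, and replicate 3 was 1.23, 1.45 and 1.27 times replicate 2 in the order of the IDs. Evening ratios were 7.60, 5.68 and 5.99. The nearest preceding ID with 60 or more counts, Peaxi162Scf00109g00019, is not a member because its mean was 4.52 CPM, its morning ratio 2.69 and its ratio of means 0.387, but its evening values of 5.04, 1.14 and 1.38 CPM have the same order. The other listed IDs within 15 numbers of this run had 0 to 3 counts in all. Adjacent IDs can be copies that share reads or pieces of the same transcript, and the table does not separate these cases, so the 3 may not be independent genes.

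The run on scaffold 69 held 2 patterns. Peaxi162Scf00069g01838 and Peaxi162Scf00069g01839 had replicate 1 high, with 20.8, 9.69 and 9.57 CPM and 31.2, 15.1 and 17.8 CPM in 7PM replicates 1 to 3. Peaxi162Scf00069g01928 had replicate 3 high, with 80.7, 62.5 and 130.5 CPM. Between Peaxi162Scf00069g01839 and Peaxi162Scf00069g01928 lie 3 expressed IDs that are not eligible. These are Peaxi162Scf00069g01842, Peaxi162Scf00069g01925 and Peaxi162Scf00069g01927, with ratios of means of 0.470, 0.246 and 0.0128, so this run is adjacent only once they are dropped. On scaffold 130, Peaxi162Scf00130g00615 and Peaxi162Scf00130g00620 both had replicate 3 high, with 18.1, 11.8 and 40.7 CPM and 230.7, 189.4 and 423.5 CPM in 7PM replicates 1 to 3. Between them lie Peaxi162Scf00130g00618, even in the evening (evening ratio 1.03), and Peaxi162Scf00130g00619, which is highest in replicate 2. Neither of these is eligible, since their ratios of means were 2.39 and 30.3. On scaffold 720, Peaxi162Scf00720g00045 had replicate 1 high, while its eligible neighbour Peaxi162Scf00720g00068 had replicate 2 low, with 14.3, 5.92 and 21.0 CPM in 7PM replicates 1 to 3. The scaffold neighbours are named after their values were seen.

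Small differences among morning libraries, kept within 25% by the rule, were weakly related to the evening pattern. Across the 132 members, the log2 deviation of a morning library from the morning mean correlated with that of an evening library at -0.30 to 0.24 (Pearson's r across genes of the same 6 libraries, 9 pairs of libraries, a description). Same-numbered libraries gave -0.02, 0.24 and 0.04 for replicates 1 to 3. In the members with replicate 1 high, the median morning deviation was -0.02, -0.01 and 0.04 in 7AM replicates 1 to 3, against 0.71 in evening replicate 1.

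The comparison of 7PM with 7AM called few members. With edgeR's quasi-likelihood test across 17638 genes (Benjamini-Hochberg adjusted p under 0.05), 5 members were called higher and 7 lower at 7PM, and 120 were not called. Over all tested genes 27.5% were called higher and 32.4% lower, together 59.9%. The rule limited the ratio of the means and asked for a large evening spread, so nothing is read from the members' count. Their 7PM mean was above the 7AM mean in 70 members and below it in 62, with a median ratio of 1.04. The number of members called moved with the library left out. Without 7PM replicate 1, the same test called 11 members higher and 44 lower, where 59.6% of all tested genes were called. Without 7PM replicate 2 it called 12 and 15 (56% of all tested genes), and without 7PM replicate 3 it called 10 and 13 (54.3%). Without 7AM replicate 1 or 2 it called 1 member higher and 1 lower (51.3% and 50.2%), and without 7AM replicate 3 it called 2 and 1 (52.2%). DESeq2 called 12 members higher and 12 lower (57.5%), limma-voom 3 and 16 (60%), and edgeR with RLE factors 8 and 5 (59.8%). Scaled to library totals, edgeR called 0 members higher and 33 lower, with 40 members at an unadjusted p under 0.05. That scaling called 2835 of all tested genes higher and 9443 lower (69.6%), and the median log2 difference (7PM minus 7AM) over those genes went from -0.05 to -0.44. With library totals, the 7PM mean of 25 members was above the 7AM mean.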

How the data were processed

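The authors deposited 1 table of raw read counts per gene for the 6 libraries, made by aligning reads to the genome of Petunia axillaris, per the labels. The tools named in the submitters' processing notes are cutadapt, TopHat2 and HTSeq. Tool versions, settings, annotation and strand handling were not given in the sources used here. Mitchell is a hybrid, so counts against this reference may be lowered or split for some genes. Columns were tied to samples by their descriptions, and all columns were used.

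CPM came from edgeR 4.0.16 in R 4.3.3 on rows with at least 60 counts, with TMM-scaled library sizes. The 7PM to 7AM test used filterByExpr, TMM and glmQLFTest, adjusted over 17638 genes. Pairs of replicates of 1 time differed by more than sampling noise, and evening pairs more than morning pairs. Chi-square per degree of freedom was 6.61 to 10.9 at 7AM and 21.8 to 29.5 at 7PM. Up to 12 IDs were named by rule, 2 for each evening replicate and direction. The members, lists and rules were chosen with earlier results of these data known. The position relative to the morning range and the run on scaffold 109 were added after seeing the data, as were the positions under other scalings. Alternatives were other scalings, filters and limits, DESeq2 1.42.0, limma-voom (limma 3.58.1), a replicate block and each library left out. Gene lists by name were not applied, since the IDs have no names here.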

Additional observations from a re-analysis of the deposited data

How the results depend on the processing

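The number of members stayed within 1.5 times of 132 under other scalings and filters on counts (124 to 139), and 104 (library totals) to 132 of the members reported remained. It was 52 with a mean of at least 50 CPM, 32 with an evening ratio of 3 and 216 with a morning ratio of 1.5, and 35 to 203 with 1 library left out. With the times exchanged the number was 2, and 0, 0 and 4 under those 3 limits in turn, and 0 to 10 with 1 library left out. Replicate 1 high held 61.5% of members at 50 CPM and 37.9 to 47.1% without a 7AM library. It held 43.1% with RLE factors, 57.3% with library totals and 42.1% at a morning ratio of 1.5. Replicate 1 was highest in 47.7% with RLE factors, 66.1% with library totals and 65.4% at 50 CPM, and replicate 2 lowest in 51.9% at 50 CPM. The first axis held 80.0% with library totals, 83.8% at 50 CPM, 80.5% at an evening ratio of 3 and 67.3 to 72.9% without a 7AM library. Members next to a member numbered 4 with library totals, 2 at 50 CPM, 5 at an evening ratio of 3, 18 at a morning ratio of 1.5 and 0 to 22 with 1 library left out. Patterns are not defined with 2 evening libraries. Of all tested genes, 4852 were higher and 5714 lower at 7PM, 2835 and 9443 with library totals, and 4169 to 5365 and 4857 to 5358 with 1 library left out. Whether replicate numbers pair the libraries was not settled. Deviations of same-numbered ones correlated at -0.09, 0.14 and 0.12 over 10905 genes, and those of differently numbered ones at -0.28 to 0.20. With a replicate block 4544 genes were higher and 5367 lower (4 and 12 members, with 56.2% of all tested genes called). Of 156 alternative fold changes of the 12 named genes, 148 moved by less than their SE. That SE holds the evening spread for which these genes were chosen, so it is wide and the count says little about stability. For example, the log2 fold change of Peaxi162Scf00002g05210 went from 0.25 to -0.18 with limma-voom, a change of sign within its SE. The causes were not tested.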
